A study of Arabidopsis thaliana with 2 samples.

Results

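The heat shock proteins and heat shock factors of Arabidopsis thaliana are described here in shoots of the whitening mutant wn1 and of its wild-type background Col-0. The 39 genes were taken by identifier from the 33565 rows of the authors' TAIR10 gene table, and all 39 were found. They comprise 9 small heat shock proteins, 3 members of the HSP100 family, 10 of HSP70, 6 of HSP90, 6 heat shock factors, and 5 co-chaperones and coactivators. By the known location of their products, 26 belong to the cytosol or nucleus, 5 to the endoplasmic reticulum (ER), 5 to the plastid and 3 to the mitochondrion.

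Both groups were Col-0 seedlings, 7 days old, raised on solid medium with 16 h light and 8 h dark at 22 °C, and the labels name no heat treatment. One group is labelled wild type control and the other whitening mutant wn1, and the labels name no gene for the mutation. There was 1 library of each, from shoot and cotyledon tissue, so differences carry no replicate check and no p-value. The sources used here give neither the hour of harvest nor the number of plants in a library.

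When proteins unfold, heat shock factors bind heat shock elements in the promoters of chaperone genes and raise their transcription. Small heat shock proteins hold unfolding proteins, HSP70 and HSP90 refold and mature them with the help of co-chaperones, and HSP100 disaggregases pull aggregates apart. HSP70 and HSP90 in turn hold the factors inactive in unstressed cells. The ER, plastids and mitochondria carry their own chaperones, and the ER set answers to a separate unfolded protein response. In leaves some members, such as HSC70-1, are always made, while others are made mainly on heat or other stress and in maturing seeds.

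Values are FPKM (fragments per kilobase of transcript, relative to all mapped fragments), which are per length, so levels can be compared between genes. A difference is log2((wn1 + 1)/(wild type + 1)), which understates the change of weakly expressed genes. A gene was counted as measured at a mean FPKM of at least 1, and as lower or higher in wn1 at 2-fold or more. Of the 39 genes 36 were measured. HSP21 of the plastid, HSP23.6-MITO of the mitochondrion and BIP3 of the ER were not. HSP21 had 0.271 FPKM in wild type against 0.0742 in wn1. BIP3 had 0.0697 and 0.201. HSP23.6-MITO was listed at 0 in wild type and had 0.313 in wn1. These 3 stress-inducible genes rested on about 7 fragments or fewer in either library, by a depth estimated from the values.

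Most of the measured genes lay below 0, with the smaller FPKM in wn1. Of the 36, 31 did so, against 47.1% of all measured genes, and the median difference was -0.47, against 0.03 for the 18788 genes that passed the same filter. In either direction 8 of 36 passed 2-fold, where 7.32% of all measured genes did. At 2-fold or more, 7 of 36 were lower (19.4%), where 3.65% of all measured genes were. They were HSP17.6II, HSP17.4, HOP3, HSP70-4, HSP17.8, CLPB3 and HSP22.0. HSFA3 was the 1 member at least 2-fold higher, where 3.67% of all measured genes were. At 4-fold or more, HSP17.6II was lower and no member was higher, where 0.681% and 0.383% of all measured genes were. The first quartile of all genes lay at -0.25, and 25 of the 36 members (69.4%) lay below it. The summed FPKM of all 39 genes was 3982 in wild type and 2822 in wn1.

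**Figure D1:**
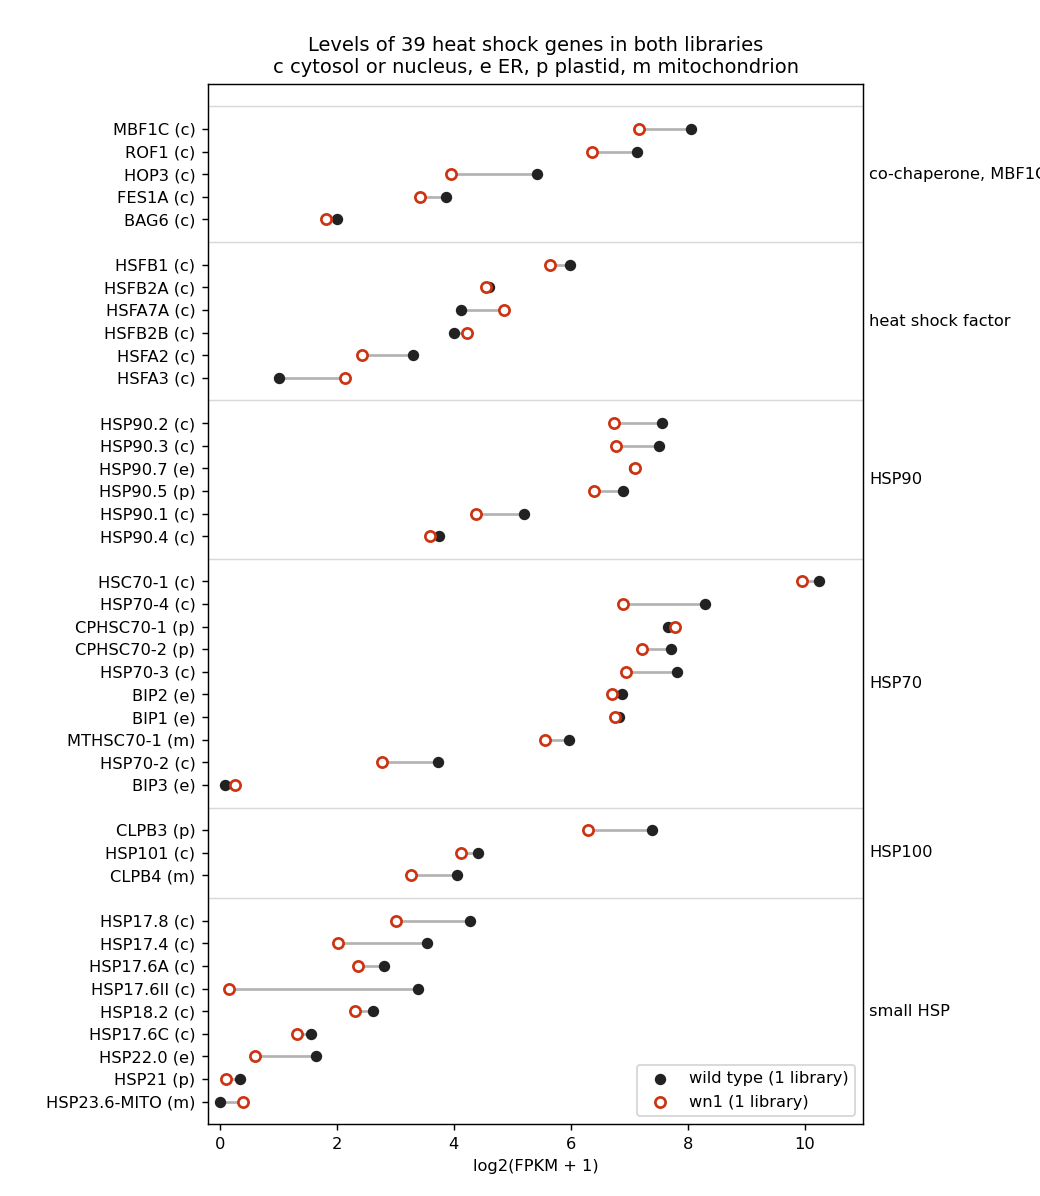
Level of each of the 39 genes as log2(FPKM + 1) on the x axis, in wild type (filled) and wn1 (open), 1 library each, grouped by protein class and ordered by mean FPKM. HSC70-1 stands highest in both libraries, HSP17.6II has the longest gap between them, and HSFA3 and HSFA7A lie higher in wn1.

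The size of these counts depended on the rows that set the scale. After division of both columns by their sums, 29 of 36 members were at least 2-fold lower, but so were 6338 genes, with 80 higher, against 685 and 690 as deposited. That scaling follows 1 plastid transfer RNA row, ATCG00010, listed at 0 in wild type and holding 54.1% of all FPKM in wn1, and it moved the median of all genes to -0.84. The members' median minus that of all genes was -0.55 on that scale and -0.499 as deposited, and 32 of 36 members lay below the median of all genes under either scale. Without organelle genes in the total the members' median was -0.46.

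Heat shock elements were searched in the 250 bases upstream of the annotated transcript start, read from RefSeq's TAIR10.1 genome, in whose annotation all 39 identifiers were found. The basic element of 2 units was GAANNTTC or TTCNNGAA, and the fuller element of 3 units was GAA, TTC and GAA, or TTC, GAA and TTC, with NN between units, which contains the former. Each form was searched on both strands. The 2-unit element was found in 10 of 39 members (25.6%), and in 16.1% of 30594 nuclear promoters. The 3-unit element was found in 4 members (10.3%), and in 0.382% of the promoters. The promoters of those 4 are shown because the same element stands before genes that differed in opposite directions on the scale as deposited. Capitals mark the element's GAA and TTC units. The windows are on chr3:16984868-16985091 (minus strand) for HSP17.4, chr1:19980049-19980298 (plus) for HSP17.6C, chr2:11135374-11135623 (plus) for HSFA2 and chr3:19264891-19265140 (plus) for HSFA7A. That of HSP17.4 stops 26 bases before the start, where the gene record already begins. The 2-unit match of HSP101, not printed, lies inside its gene record, which starts further upstream than the transcript used.
HSP17.4: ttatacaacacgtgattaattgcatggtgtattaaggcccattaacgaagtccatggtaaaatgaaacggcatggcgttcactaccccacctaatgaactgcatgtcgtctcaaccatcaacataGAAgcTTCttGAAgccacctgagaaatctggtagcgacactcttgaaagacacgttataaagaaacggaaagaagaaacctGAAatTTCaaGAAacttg
HSP17.6C: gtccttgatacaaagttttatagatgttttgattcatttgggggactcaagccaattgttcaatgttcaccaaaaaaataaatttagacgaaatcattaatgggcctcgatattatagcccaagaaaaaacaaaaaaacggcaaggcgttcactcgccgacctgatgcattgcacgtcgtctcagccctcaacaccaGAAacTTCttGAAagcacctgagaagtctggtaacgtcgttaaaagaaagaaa
HSFA2: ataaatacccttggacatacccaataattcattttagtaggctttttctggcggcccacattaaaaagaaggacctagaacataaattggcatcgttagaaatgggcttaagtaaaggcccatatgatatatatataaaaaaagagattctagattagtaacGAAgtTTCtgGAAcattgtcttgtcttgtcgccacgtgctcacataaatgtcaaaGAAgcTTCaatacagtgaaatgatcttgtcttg
HSFA7A: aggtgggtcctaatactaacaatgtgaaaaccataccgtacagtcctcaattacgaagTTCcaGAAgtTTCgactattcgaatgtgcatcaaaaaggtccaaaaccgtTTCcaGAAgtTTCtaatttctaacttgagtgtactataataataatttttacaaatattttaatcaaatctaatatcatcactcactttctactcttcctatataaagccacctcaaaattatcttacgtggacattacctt

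HSP17.4 and HSFA7A each held 2 such elements, and HSFA2 held 1 with a further 2-unit element nearer the start. Of the 4 genes HSP17.4, HSFA2 and HSP17.6C had lower FPKM in wn1, with differences of -1.52, -0.88 and -0.25. The counting interval of HSP17.6C held 0. HSFA7A had higher FPKM, with a difference of 0.74. After division by column sums it was -0.22, where the median of all genes was -0.84, and all 4 genes then lay below 0. The 9 measured members with a 2-unit element had a median of -0.44, and the 27 without one in this window had a median of -0.49. A match is a description of the letters and not a shown binding site.

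**Figure D2:**
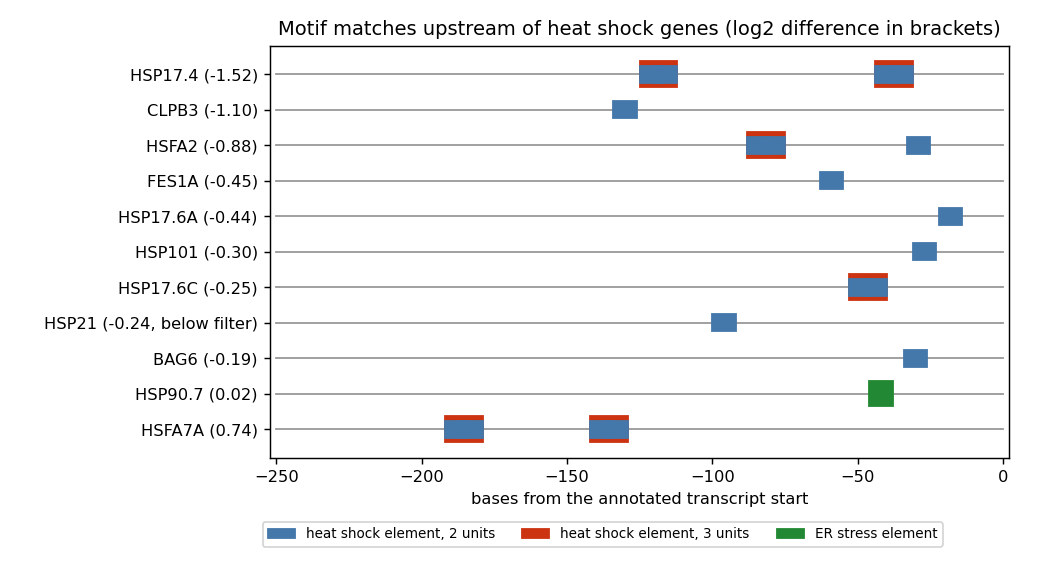
Motif matches in the 250 bases before the annotated transcript start (x axis, in bases) of the 11 members that held any, ordered by log2 difference, which stands in brackets. The 4 members with a 3-unit element span differences from -1.52 for HSP17.4 to 0.74 for HSFA7A on the scale as deposited.

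Among the members, small heat shock proteins had the most negative median of the 6 classes as deposited. All 7 measured genes lay below 0, 4 of them at least 2-fold lower, with a median of -1.05. After division by column sums, with the pseudocount of 1 kept, their median was -1.38. Medians further below 0 were then -1.76 for co-chaperones, -1.66 for HSP100, -1.61 for HSP90 and -1.40 for HSP70. That division shifts the FPKM ratios of all genes by the same -1.01 in log2, which alone cannot reorder the classes. The pseudocount shrinks the differences of weakly expressed genes. Levels of small heat shock proteins were low beside those of HSP70 and HSP90. The 9 genes summed to 54.1 FPKM in wild type against 20.7 in wn1, 38.3% of the wild-type sum. They are a part of the family. Another 9 small heat shock proteins, described below, had a median of -0.26, with 7 below 0 and 2 above.

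The widest difference was that of HSP17.6II (AT5G12020), a cytosolic small heat shock protein of class II. It had 9.54 FPKM in wild type against 0.110 in wn1 (log2 difference -3.25). With the depth estimated from the steps of low FPKM values, about 13100000 fragments in the wild-type library and 15900000 in that of wn1, this was about 110 fragments against about 2. The log2 ratio without pseudocount was -6.43, with a 95% exact interval of -9.12 to -4.17 that covers counting error only, as do all intervals given here. The other class II gene, HSP17.6A (AT5G12030), lies next to it on chromosome 5 with 845 bases between the gene records. Their coding sequences are 86.6% identical. HSP17.6A had 5.98 FPKM in wild type against 4.13 in wn1 (log2 difference -0.44), so the neighbours differed by unequal amounts. Together they had 15.5 and 4.24 FPKM.

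Among the 4 cytosolic class I members, HSP17.8 had the highest level. HSP17.8 (AT1G07400) had 18.4 FPKM in wild type against 7.06 in wn1 (log2 difference -1.27). HSP17.4 (AT3G46230) had 10.7 and 3.06, a difference of -1.52, and its gene record overlaps a noncoding RNA gene over 453 bases, whose reads cannot be told apart without a stated strand. These 2 genes were lower by more than 2-fold, while their class I relatives were nearer to wild type. HSP18.2 (AT5G59720) had 5.11 and 3.98 FPKM. HSP17.6C (AT1G53540) had 1.96 and 1.49. For both, the counting interval of the log2 ratio held 0, so that a difference was not detectable at this depth. HSP22.0 (AT4G10250), the small heat shock protein of the ER, had 2.14 FPKM in wild type against 0.512 in wn1 (log2 difference -1.05), which rests on about 29 and 8 fragments.

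Genes of seed storage, oil bodies and late embryogenesis, which mark tissue in which small heat shock proteins are also made, were read beside these values. All 4 seed markers lay below 0, and 3 were at least 2-fold lower. CRA1, a seed storage cruciferin, had 42.3 FPKM in wild type against 7.81 in wn1. The summed level of the 4 was 166 FPKM in wild type against 60.7 in wn1, and none was at 0. Their part in the small heat shock protein result was not tested.

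The 3 disaggregases of the HSP100 family all lay below 0, and 1 of them, CLPB3, was at least 2-fold lower. CLPB3 (AT5G15450), the plastid member, which chloroplast development needs, had 166 FPKM in wild type against 77.1 in wn1 (log2 difference -1.10). CLPB4 (AT2G25140) of the mitochondrion had 15.6 and 8.68, a difference of -0.78. HSP101 (AT1G74310), the cytosolic member required for acquired thermotolerance, had 20.4 and 16.4, a difference of -0.30. The plastid gene stood above both others in level in either library, and its difference was the widest of the 3.

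Of the 9 measured HSP70 genes 8 lay below 0. The 4 cytosolic genes had a median of -0.91, and the 2 measured ER genes one of -0.12. HSC70-1 (AT5G02500), the constitutive cytosolic HSP70, was the highest of all members, with 1212 FPKM in wild type against 989 in wn1 (log2 difference -0.29). HSP70-4 (AT3G12580), listed as HSP70 in the table and heat-inducible, had 315 and 118, a difference of -1.40. HSP70-3 (AT3G09440) had 224 and 122, a difference of -0.87. HSP70-2 (AT5G02490) had 12.3 and 5.85, a difference of -0.96. HSP70-2 was the member closest to 2-fold among those that missed it. Its FPKM ratio without pseudocount was 0.476, so it would be counted as lower on that scale, as would HSFA2 at 0.492. HSC70-1 made up 68.7% of the summed cytosolic HSP70 FPKM in wild type and 80.0% in wn1. HSP70-4 made up 17.9% and 9.58%. The 4 cytosolic genes together had 1764 FPKM in wild type against 1236 in wn1. Their coding sequences are between 79.2% and 86.9% identical in pairs, and the sources used here do not say how the authors divided shared reads.

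BiP, the HSP70 of the ER lumen, was close to wild type. BIP1 (AT5G28540) had 112 FPKM in wild type against 107 in wn1, and BIP2 (AT5G42020) had 116 and 104. These genes are 97.3% identical in coding sequence, so their division is uncertain, but their sum was 229 FPKM in wild type against 211 in wn1, 92.1% of wild type. The plastid HSP70 genes went apart. CPHSC70-1 (AT4G24280) had 202 and 218 FPKM, a difference of 0.11. With both columns divided by their sums it was -0.89, where the median of all genes was -0.84. CPHSC70-2 (AT5G49910) had 209 and 149, a difference of -0.49. These plastid genes are 84.7% identical in coding sequence, and together they had 411 and 367 FPKM. MTHSC70-1 (AT4G37910) of the mitochondrion had 61.7 and 46.0, a difference of -0.41.

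**Figure D3:**
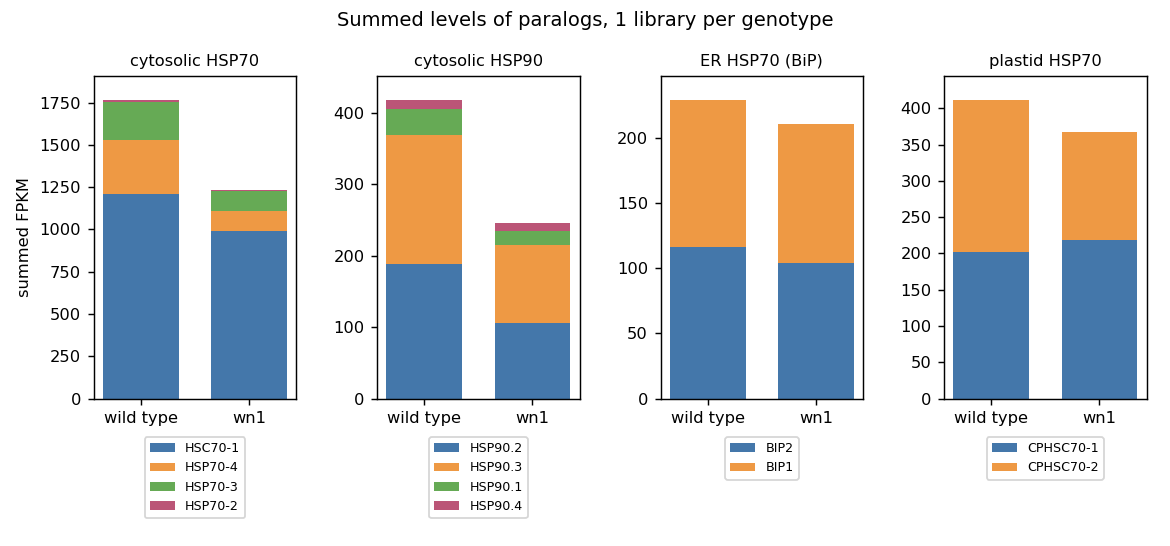
FPKM of paralogs stacked to their sum (y axis from 0, a separate scale in each panel) in wild type and wn1, 1 library each. The cytosolic HSP70 sum is 1764 in wild type and 1236 in wn1 and the cytosolic HSP90 sum 418 and 245, while the BiP sum is 229 and 211.

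All 4 cytosolic HSP90 genes lay below 0, and the ER gene was near 0. HSP90.2 (AT5G56030) had 188 FPKM in wild type against 106 in wn1 (log2 difference -0.82). HSP90.3 (AT5G56010) had 181 and 108, a difference of -0.73. HSP90.4 (AT5G56000) had 12.5 and 11.07, with a counting interval of the log2 ratio that held 0. These 3 genes lie side by side on chromosome 5, and their coding sequences are between 94.3% and 95.7% identical in pairs, so their division is uncertain. Their sum was 382 FPKM in wild type against 226 in wn1 (log2 difference -0.76). HSP90.1 (AT5G52640), the heat-induced cytosolic gene, had 35.6 and 19.7, a difference of -0.82. None of the 4 passed 2-fold.

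HSP90.7 (AT4G24190), the HSP90 of the ER known as SHEPHERD, had 134 FPKM in wild type against 136 in wn1. Its difference of 0.02 turned to -0.01 after centring on the median of all genes and to -0.98 after division by column sums. The median of all genes was -0.84 after that division. HSP90.5 (AT2G04030) of the plastid had 118 and 83.5 FPKM, a difference of -0.49. HSP90.7 was the 1 member with CCACGTCA or its reverse complement TGACGTGG, a core letter string of ER stress elements, in its 250 bases upstream, found in 1.26% of nuclear promoters. It is shown with that string in capitals, from chr4:12556059-12556308 on the minus strand of TAIR10.1. The promoter of CLPB3, the plastid member with the widest difference, is set beside it with its 2-unit heat shock element in capitals, from chr5:5018348-5018597 on the minus strand.
HSP90.7: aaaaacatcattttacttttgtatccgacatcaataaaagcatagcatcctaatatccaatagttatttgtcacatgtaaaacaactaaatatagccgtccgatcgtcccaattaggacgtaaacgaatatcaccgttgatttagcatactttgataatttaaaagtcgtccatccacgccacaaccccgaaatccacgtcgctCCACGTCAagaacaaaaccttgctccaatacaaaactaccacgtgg
CLPB3: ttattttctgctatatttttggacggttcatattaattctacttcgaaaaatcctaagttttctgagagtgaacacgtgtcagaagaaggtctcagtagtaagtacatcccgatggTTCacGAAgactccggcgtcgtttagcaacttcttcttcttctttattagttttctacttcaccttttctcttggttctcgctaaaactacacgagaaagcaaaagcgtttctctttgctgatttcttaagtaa

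Heat shock factors were split in direction. Of 6 genes 3 lay below 0 and 3 above, with a median of 0.08. After division by column sums it was -0.86, where the median of all genes was -0.84. HSFA2 (AT2G26150), which prolongs the heat response and is itself induced by heat, had 8.93 FPKM in wild type against 4.39 in wn1 (log2 difference -0.88). HSFA7A (AT3G51910), another heat-induced factor, had 16.3 and 27.9, a difference of 0.74 that turned to -0.22 with both columns divided by their sums. HSFA3 (AT5G03720), which acts downstream of the drought and heat factor DREB2A, had 1.02 and 3.40, a difference of 1.12 and of 0.43 after that division.

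The call for HSFA3 rests on about 30 wild-type fragments and 120 of wn1, and the log2 ratio without pseudocount was 1.74 (95% counting interval 1.13 to 2.35). Its gene record overlaps AT5G03710 over 486 bases, a gene with 1.44 FPKM in wild type against 1.17 in wn1. The class B factors, some of which repress heat shock genes in unstressed plants, were nearer to wild type. HSFB1 (AT4G36990), the highest factor among the members, had 62.7 and 49.3 FPKM. HSFB2A (AT5G62020) had 23.3 and 22.4, and the counting interval of the log2 ratio held 0. HSFB2B (AT4G11660) had 15.1 and 17.7, a difference of 0.22. With both columns divided by their sums it was -0.72, where the median of all genes was -0.84.

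The co-chaperones and the coactivator MBF1C lay below 0 in 5 of 5 cases, with a median of -0.77, and 1 of them, HOP3, was at least 2-fold lower. HOP3 (AT4G12400), which bridges HSP70 and HSP90, had 42.00 FPKM in wild type against 14.4 in wn1 (log2 difference -1.48). Its gene record overlaps AT4G12390, at 34.9 FPKM in wild type against 36.7 in wn1, over 163 bases. MBF1C (AT3G24500), a coactivator needed for heat tolerance, had 266 and 142, a difference of -0.90. ROF1 (AT3G25230), a peptidyl-prolyl isomerase that binds HSP90, had 139 and 81.2, a difference of -0.77. The lowest 2 in level differed less. FES1A (AT3G09350), an HSP70-binding protein of thermotolerance, had 13.6 and 9.68, a difference of -0.45. BAG6 (AT2G46240), a calmodulin-binding BAG protein, had 3.01 and 2.52, with a counting interval of the log2 ratio that held 0.

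By compartment, the ER stood nearest to wild type. The 26 genes of the cytosol and nucleus had a median of -0.59. At 2-fold or more 5 of the 26 were lower (19.2%) and 1 higher, where 3.65% and 3.67% of all measured genes were. Below 0 lay 23 of the 26 (88.5%), where 47.1% of all measured genes did. The 3 above 0 were all heat shock factors, so without that class all 20 lay below 0, with a median of -0.79. Among those 20, the counting intervals of HSP17.6C, HSP18.2, HSP90.4 and BAG6 held 0. The 4 measured ER genes had a median of -0.12, from -1.05 for HSP22.0 to 0.02 for HSP90.7. Of these 4, 3 lay below 0 and 1 was at least 2-fold lower. The 4 measured plastid genes had a median of -0.49, from -1.10 for CLPB3 to 0.11 for CPHSC70-1. Here too 3 lay below 0 and 1 was at least 2-fold lower. The 2 measured mitochondrial genes, CLPB4 and MTHSC70-1, had a median of -0.60, and neither was at least 2-fold lower. In summed FPKM, wn1 had 66.5% of the wild-type level for the cytosol and nucleus, 95.1% for the ER, 75.8% for the plastid and 71.2% for the mitochondrion. No difference between compartments was tested, since the genes of a compartment are not replicates.

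**Figure D4:**
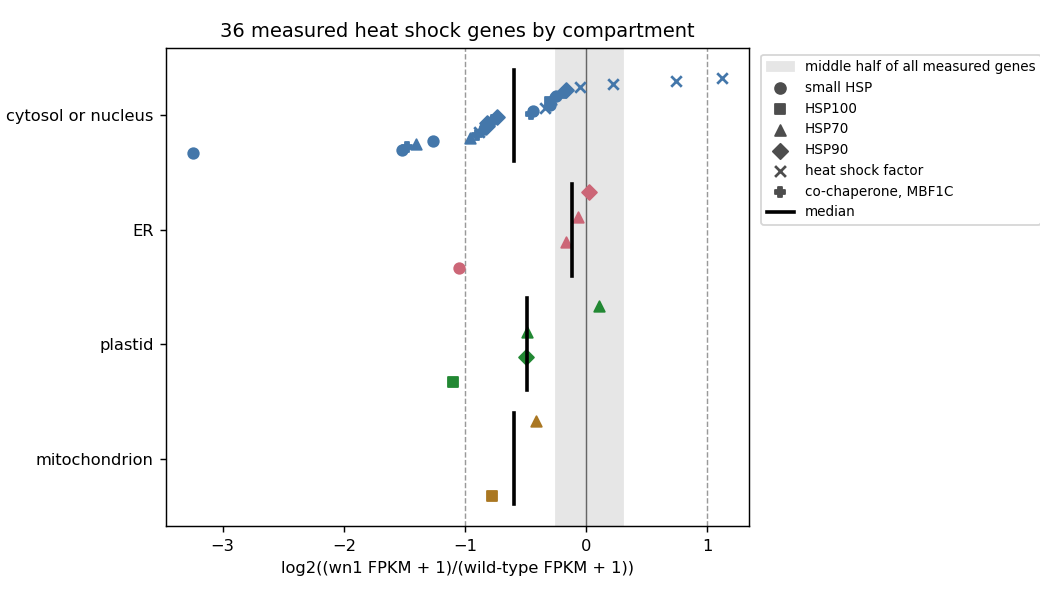
Log2 difference (x axis) of the 36 measured members by compartment, with symbols for protein class, a bar at the median, dashed lines at 2-fold and a grey band from the first to the third quartile of all measured genes. The large ER chaperones lie inside the band, while the medians of the cytosol and nucleus (-0.59), the plastid (-0.49) and the mitochondrion (-0.60) lie outside it.

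Other genes of the same systems were set beside the members. Of 74 listed genes in 7 lists 73 were measured, with a median of -0.14. Of the 73, 45 lay below 0 (61.6%), where 47.1% of all measured genes did. At 2-fold or more 5 were lower (6.85%), where 3.65% of all measured genes were. Only 1 was higher, where 3.67% of all measured genes were. Past 2-fold in either direction were 6 of 73, where 7.32% of all measured genes were. ER folding and unfolded protein response genes stayed within 2-fold in 15 of 15 cases, with 9 below 0 and a median of -0.14. CRT1B, a calreticulin, had 147 FPKM in wild type against 171 in wn1. BZIP17, a membrane-bound stress factor, had 10.98 and 8.34, and SDF2 had 41.4 and 32.7. The calnexin CNX2 had 13.7 and 17.36.

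Other mitochondrial chaperones lay below 0 in 6 of 6 cases, with a median of -0.51. HSP90.6, the mitochondrial HSP90, had 29.4 FPKM in wild type against 15.5 in wn1 (log2 difference -0.88). MTHSC70-2 had 41.95 and 26.9, and the chaperonin HSP60 had 95.6 and 65.5. CPN10-MITO, its co-chaperonin and the highest of the list, had 125 and 89.2. Other plastid chaperones lay above 0 in 8 of 8 cases, with a median of 0.17. After division by column sums that median reversed to -0.84, where the median of all genes was also -0.84. The chaperonin subunit CPN60B1 had 240 and 458 FPKM and CPN10 had 26.03 and 51.0. CPN20, a co-chaperonin and the highest of the list, had 565 and 622. HSP93-III, a motor of protein import, had 77.9 and 114. On the scale as deposited, the measured plastid members thus lay below 0 in 3 of 4 cases, and the genes of that list above 0 in 8 of 8. Of the list, only CPN10, CPN60B1 and HSP93-III lay above the third quartile of all genes, 0.31. The rest, among them the Clp ATPases CLPC1 and CLPD with differences of 0.07 and 0.05, lay below that quartile.

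In the cytosol, other HSP70 proteins and co-chaperones lay below 0 in 10 of 14 cases, with a median of -0.28 and 1 at least 2-fold lower. That gene was ROF2, the paralog of ROF1, with 26.1 FPKM in wild type against 8.26 in wn1. HOP2 had 52.7 and 30.2, HSP70-15 had 116 and 69.2, and the co-chaperone J3 had 383 and 311. Of the 9 other small heat shock proteins, a list not split by compartment and not limited to the cytosol, 7 lay below 0, with a median of -0.26. HSP17.6B, of class I like HSP17.8, had 16.1 and 15.0 FPKM, a difference of -0.09. HSP26.5 had 28.9 and 5.82 FPKM, a difference of -2.13, and HSP18.5 had 112 and 53.0. HSP15.4 went the other way at 8.80 FPKM in wild type against 36.9 in wn1 (log2 difference 1.95).

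The other heat shock factors were split, with 8 of 14 below 0 and a median of -0.01. HSFC1 was the 1 factor at least 2-fold lower, with 30.0 FPKM in wild type against 11.2 in wn1. HSFB3 had 2.14 and 0.929, HSFA4A had 2.94 and 1.43, and HSFA6A had 116 and 115. Of 7 other heat-responsive genes 5 lay below 0, with a median of -0.26. APX2, a cytosolic ascorbate peroxidase induced by heat and strong light, had 3.78 and 0.280 FPKM, a difference of -1.90. HSBP, which binds heat shock factors, had 102 and 85.1, HSA32 had 13.3 and 9.61, and the galactinol synthase GOLS1 had 17.76 and 24.8.

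**Figure D5:**
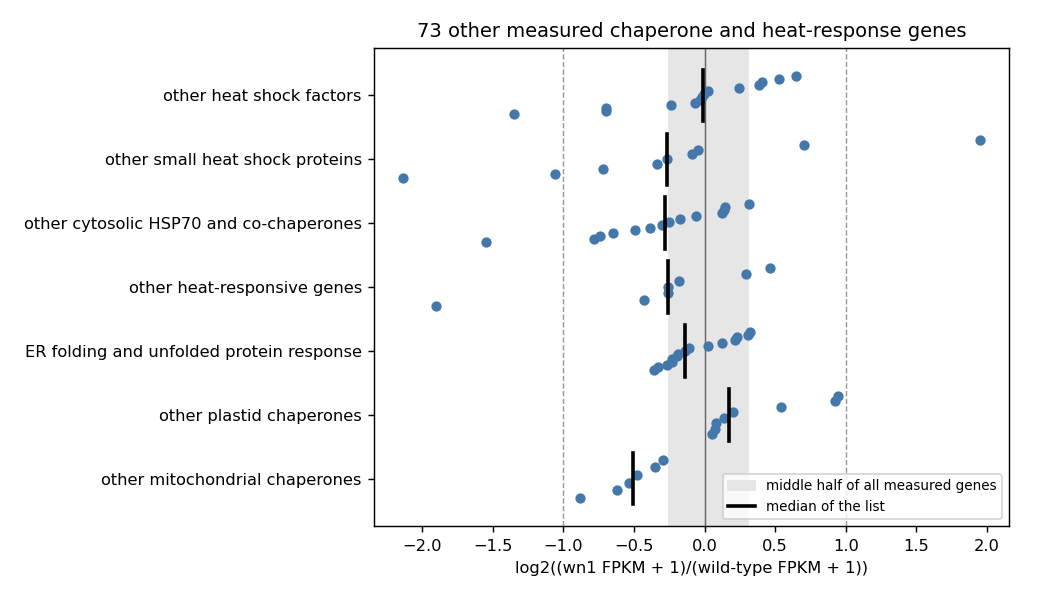
Log2 difference (x axis) of 73 other measured chaperone and heat-response genes in 7 lists, with a bar at each list's median, dashed lines at 2-fold and a grey band from the first to the third quartile of all measured genes. ER genes cluster around 0, mitochondrial chaperones lie below 0 and plastid chaperones above 0.

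The tissue label was checked on markers. All 7 shoot markers were measured in both libraries, with 4 above 0 and a median difference of 0.23 on the scale as deposited. Their summed level was 33509 FPKM in wild type against 29127 in wn1, most of it from CAB1 and from RBCS1A, which had 19784 and 13647. All 3 root markers were measured as well and lay below 0, with a median of -0.43 and sums of 41.8 FPKM in wild type against 31.0 in wn1. Of these, CASP1 had 25.1 and 20.6. The check thus does not show that the libraries were free of root tissue, and a part of root tissue in the values was not tested. The phloem transporter SUC2 was the 1 shoot marker at least 2-fold lower, with 79.6 and 35.8 FPKM. In such bulk tissue, fewer cells of a type and less RNA per cell cannot be told apart.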

How the data were processed

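RNA was extracted with a plant column kit and made into Illumina libraries, per the labels' protocols. The authors deposited FPKM per gene, 1 column per library; the submitters' processing notes name Bowtie and TAIR10, and the sources used here give no counter, versions or strand. Another 2 columns of other material were not used. Columns were matched to samples by name (WT and WN). The pseudocount was 1 and the filter a mean FPKM of at least 1. Depth was estimated from genes with 1 transcript of at least 1000 bases and FPKM up to 0.15, 887 in wild type and 938 in wn1, and is approximate. The lengths come from TAIR10.1 and not TAIR10. The ratio of depths was 1.21, and 1.22 from the ratios of low values. Fragment counts and exact binomial (Clopper-Pearson) intervals used these estimates. TAIR10.1 also gave positions, promoters and coding identities (global alignment).

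The members and lists were chosen with earlier results of these data known. Every member is reported, and from each list the 3 widest differences and the highest level. HSP17.6B, CLPC1 and CLPD are named outside that rule. Of the marker lists only SUC2, RBCS1A, CAB1, CASP1 and CRA1 are named. HSP17.6B, RBCS1A, CAB1, HSFA2's ratio, the overlaps and the neighbours were singled out after values were seen. The cytosolic set without heat shock factors was not among the planned results. Gene records of HSP101, CLPB3, HSP70-3, CPHSC70-1, CPHSC70-2, HSFB2B, MBF1C and FES1A also overlap other genes. The longest overlap, 863 bases, is that of HSP70-3 with AT3G09430, at 0.976 FPKM in wild type against 1.42 in wn1. MBF1C overlaps AT3G24503, at 67.0 and 81.9 FPKM, over 124 bases. The fold rule was run on simulated data with 4-fold changes and the same small noise at every level. That setting covers neither the counting error of weakly expressed genes nor the spread between libraries. Python 3.11.15, pandas 2.3.3, NumPy 2.4.6, SciPy 1.17.1, Biopython 1.88 and matplotlib 3.10.9 were used.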

Additional observations from a re-analysis of the deposited data

How the results depend on the processing

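With 1 library per genotype no library could be left out, and medians were counted as moved beyond 1.5-fold. No paired analysis was possible because each genotype has 1 library. Dividing by column sums moved nearly every value. The members then had 29 genes at least 2-fold lower and 0 higher, with medians of -1.39 for all, -1.50 for the cytosol and nucleus, -1.11 for the ER, -1.49 for the plastid and -1.53 for the mitochondrion. Among all genes 6338 were lower and 80 higher. In the other lists 37 genes were lower and 0 higher, and medians were -0.91 for heat shock factors, -1.02 for small heat shock proteins, -1.14 for cytosolic HSP70 and co-chaperones, -1.24 for heat-responsive genes, -1.08 for ER folding, -1.50 for mitochondrial chaperones and -0.84 for plastid chaperones, the last reversed. That scaling lowers all genes by construction. At a mean FPKM of at least 5, HSFA3 drops out, leaving 0 members higher and 5 lower, and the other heat shock factors had a median of 0.026, reversed from -0.01. At 4-fold, 1 member was lower and 0 higher, with 128 and 72 of all genes. A pseudocount of 0.1 gave 9 members lower and 1 higher, and 2 genes of the other lists higher. Centring, removing organelle genes from the total and using no filter left 7 members lower and 1 higher. Summing members with near-identical proteins joined the 4 cytosolic HSP70 genes, whose sum had a difference of -0.51. HSP70-4 was then not counted on its own, 6 were lower and 1 higher, and the cytosol median was -0.45.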
